A study of Homo sapiens with 6 samples.

Results

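The genes described here are very long human genes that span common fragile sites. The list names 9 of them (FHIT, WWOX, IMMP2L, MACROD2, LRP1B, CNTNAP2, AUTS2, SDK1 and DLG2-AS1), chosen by name and not by any measured value. The gene table used holds 8 of the 9, among 38353 protein-coding and lncRNA genes in all. DLG2-AS1 is not analysed here. R-loop peaks were counted and measured along each gene from 2 kb before its start to 2 kb past its end, and the windows of 2 kb on either side of both gene ends were set against the rest of the gene, called the body.

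The data are 6 peak lists from SH-SY5Y, a human neuroblastoma line, made by DRIP-seq. In this assay the antibody S9.6 pulls down DNA paired with RNA after the nucleic acids have been cut with restriction enzymes. Cells carried a lentiviral short hairpin RNA, shT2 in 3 samples or shNC3 in 3 samples, and all 6 samples come from cells selected with puromycin at 2 μg/mL for 2 weeks. The series concerns knockdown of TDP-43, which binds RNA mainly in the nucleus. The labels do not say which hairpin targets TDP-43, and shT2 is taken from its name to be the knockdown, and shNC3 to be the negative control. Each condition rests on 1 hairpin. Separate cultures are not mentioned for the samples of either hairpin, so p-values reflect the spread between these 6 libraries, some or all of which may be technical.

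Common fragile sites are chromosome regions that show gaps and breaks when DNA replication is mildly slowed. Many of them lie inside genes so long that a single round of transcription takes hours, and they tend to replicate late. An R-loop is a stretch of RNA paired with its template DNA strand, with the other DNA strand left single. R-loops are known mainly from GC-rich promoters and from the 3′ ends of genes, and collisions of transcription with replication at R-loops have been studied as a source of breaks at fragile sites.

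All 8 genes found are protein-coding. FHIT lies on the minus strand at chr3:59747277-61251452 and encodes a hydrolase of dinucleoside polyphosphates that acts as a tumour suppressor. WWOX lies on the plus strand at chr16:78099654-79212667 and encodes an oxidoreductase with WW domains, also a tumour suppressor. IMMP2L lies on the minus strand at chr7:110662644-111562492 and encodes a peptidase of the inner mitochondrial membrane. MACROD2 lies on the plus strand at chr20:13995516-16053197 and encodes a hydrolase that removes ADP-ribose from proteins. LRP1B, at chr2:140231423-142131016, encodes an endocytic receptor of the low-density lipoprotein receptor family. CNTNAP2 lies on the plus strand at chr7:146116801-148420998 and encodes a neurexin-family adhesion protein of axons. AUTS2 lies on the plus strand at chr7:69598475-70793506 and encodes a nuclear protein that acts in transcription in neurons. SDK1 lies on the plus strand at chr7:3301252-4269000 and encodes an immunoglobulin-family adhesion protein of synapses. IMMP2L, CNTNAP2, AUTS2 and SDK1 share chromosome 7, of which SH-SY5Y is known to carry extra copies. The lengths of the 8 genes run from 900 kb for IMMP2L to 2304 kb for CNTNAP2. Positions are those of GRCh38, the build of the files (hg38). The strand of LRP1B was not used here, and its distances are counted from the end with the lower coordinate.

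The promoter windows of 5 of these genes are shown because gene starts are where R-loops are best known, and because the 5 differ in whether a peak reached them. Each runs from 250 bases before to 50 bases after the RefSeq start (GRCh38.p14), 5′ to 3′ on the strand of the gene. Runs of 4 or more G are in capitals.
AUTS2: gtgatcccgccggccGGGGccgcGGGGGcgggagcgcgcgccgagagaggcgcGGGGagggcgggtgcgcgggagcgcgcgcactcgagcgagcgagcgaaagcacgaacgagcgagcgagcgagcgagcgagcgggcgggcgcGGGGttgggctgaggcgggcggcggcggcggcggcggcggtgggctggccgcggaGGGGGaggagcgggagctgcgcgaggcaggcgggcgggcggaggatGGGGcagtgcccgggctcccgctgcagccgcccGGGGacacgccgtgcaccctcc
IMMP2L: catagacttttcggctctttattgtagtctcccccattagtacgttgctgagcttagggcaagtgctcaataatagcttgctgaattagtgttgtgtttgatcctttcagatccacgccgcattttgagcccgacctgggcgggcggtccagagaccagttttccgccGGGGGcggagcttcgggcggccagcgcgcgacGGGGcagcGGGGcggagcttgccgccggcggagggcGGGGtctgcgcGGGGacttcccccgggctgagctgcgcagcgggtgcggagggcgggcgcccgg
WWOX: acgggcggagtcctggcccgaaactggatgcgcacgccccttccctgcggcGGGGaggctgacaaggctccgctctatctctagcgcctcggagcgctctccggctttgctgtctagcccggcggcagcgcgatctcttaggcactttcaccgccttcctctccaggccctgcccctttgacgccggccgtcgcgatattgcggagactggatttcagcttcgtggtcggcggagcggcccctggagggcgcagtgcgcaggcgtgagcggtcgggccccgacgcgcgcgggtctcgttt
MACROD2: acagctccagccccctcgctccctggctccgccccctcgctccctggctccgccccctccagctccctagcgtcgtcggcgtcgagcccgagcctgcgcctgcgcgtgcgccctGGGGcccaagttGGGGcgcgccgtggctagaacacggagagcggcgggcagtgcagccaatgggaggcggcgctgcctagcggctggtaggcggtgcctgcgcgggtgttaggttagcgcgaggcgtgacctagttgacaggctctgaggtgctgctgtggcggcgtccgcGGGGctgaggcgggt
CNTNAP2: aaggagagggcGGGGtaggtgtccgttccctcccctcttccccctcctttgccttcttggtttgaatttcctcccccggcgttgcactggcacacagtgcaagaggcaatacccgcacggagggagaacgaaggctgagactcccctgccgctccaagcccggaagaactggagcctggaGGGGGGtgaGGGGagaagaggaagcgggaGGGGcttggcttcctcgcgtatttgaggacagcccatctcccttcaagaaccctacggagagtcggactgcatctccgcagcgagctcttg
The windows lie at chr7:69598225-69598524 for AUTS2, chr7:111562443-111562742 for IMMP2L, chr16:78099404-78099703 for WWOX, chr20:13995266-13995565 for MACROD2 and chr7:146116551-146116850 for CNTNAP2.

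The AUTS2 window is 82.3% G and C, with 55 CG dinucleotides and 7 runs of 4 or more G. The IMMP2L window is 65% G and C, with 31 CG dinucleotides and 5 such runs. The windows of MACROD2 (73.3% G and C, 34 CG dinucleotides, 3 runs), WWOX (69%, 38, 1 run) and CNTNAP2 (61.7%, 16, 4 runs) lie above the median of 58.7% G and C and 14 CG dinucleotides over 35116 RefSeq promoter windows of 300 bases from 27305 genes. The FHIT window at its gene start is 55% G and C with 13 CG dinucleotides. A called peak overlapped the AUTS2 window by 58 bp in shT2 replicate 2 and by 87 and 207 bp in shNC3 replicates 2 and 3. A peak overlapped the IMMP2L window by 75 and 112 bp in shT2 replicates 2 and 3, and by 133 and 300 bp in shNC3 replicates 2 and 3. No peak touched the windows of WWOX, MACROD2, CNTNAP2 or FHIT in any sample, so a GC-rich window and a called peak did not always go together. The run GGGG on the gene's strand is present in 75.1% of all windows, and in 89.6% on either strand, so its presence in all of these windows is no special feature. None of these gene-start windows holds a site of the 5 restriction enzymes (BsrGI TGTACA, EcoRI GAATTC, HindIII AAGCTT, SspI AATATT and XbaI TCTAGA, each the same on both strands), and 22.6% of all windows hold 1 or more.

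The lists held 49068, 50971 and 50821 peaks in shT2 replicates 1 to 3 and 45390, 42717 and 45014 peaks in shNC3 replicates 1 to 3. The depth recovered from the lists was 3.08 to 3.46 fragments per base in shT2 and 1.65 to 1.79 in shNC3, a ratio of 1.90. Depth therefore moves with the hairpin. Lists thinned to equal depth kept 41417 to 45222 peaks in shT2 and 42717 to 44273 in shNC3, and values from them are given beside the results they bear on. Thinning only dropped peaks. Each kept peak retains the width called at full depth, so covered length at equal depth below does not take out an effect of depth on width. As a check of the cell line, 9 of 10 noradrenergic neuroblastoma markers carried peaks in all 6 samples, and TH had none. Their summed covered length was 119 to 123 kb in shT2 and 91.3 to 95.4 kb in shNC3, with 4 genes higher and 0 lower in shT2. Of 8 mesenchymal markers, 3 had peaks in all 6 samples and COL1A2 and SNAI2 had none. Their sum was 14.4 to 15.6 kb in shT2 and 32.4 to 34.1 kb in shNC3, with 0 higher and 3 lower (PRRX1, COL1A1 and YAP1). PRRX1 and YAP1 had no peak in shT2, entered the test only through their shNC3 samples and so could only be lower. By the same test, described below, 22.6% of all 15527 genes tested were higher and 26.8% lower in shT2, so calls in both directions are common. These marker values are R-loop coverage and not expression, and their part in the results below was not tested.

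R-loop peaks were sparse over most of the fragile site genes and piled up in the 3′ part of AUTS2. AUTS2 and SDK1 carried more covered length in shT2 than in shNC3, while CNTNAP2 and LRP1B carried less. IMMP2L and WWOX did not pass the test in either direction. FHIT had a peak in only 2 samples, both shNC3, and MACROD2 had none in any sample. The 8 genes together held 46, 43 and 42 peaks in shT2 replicates 1 to 3 and 28, 23 and 25 in shNC3 replicates 1 to 3.

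**Figure D1:**
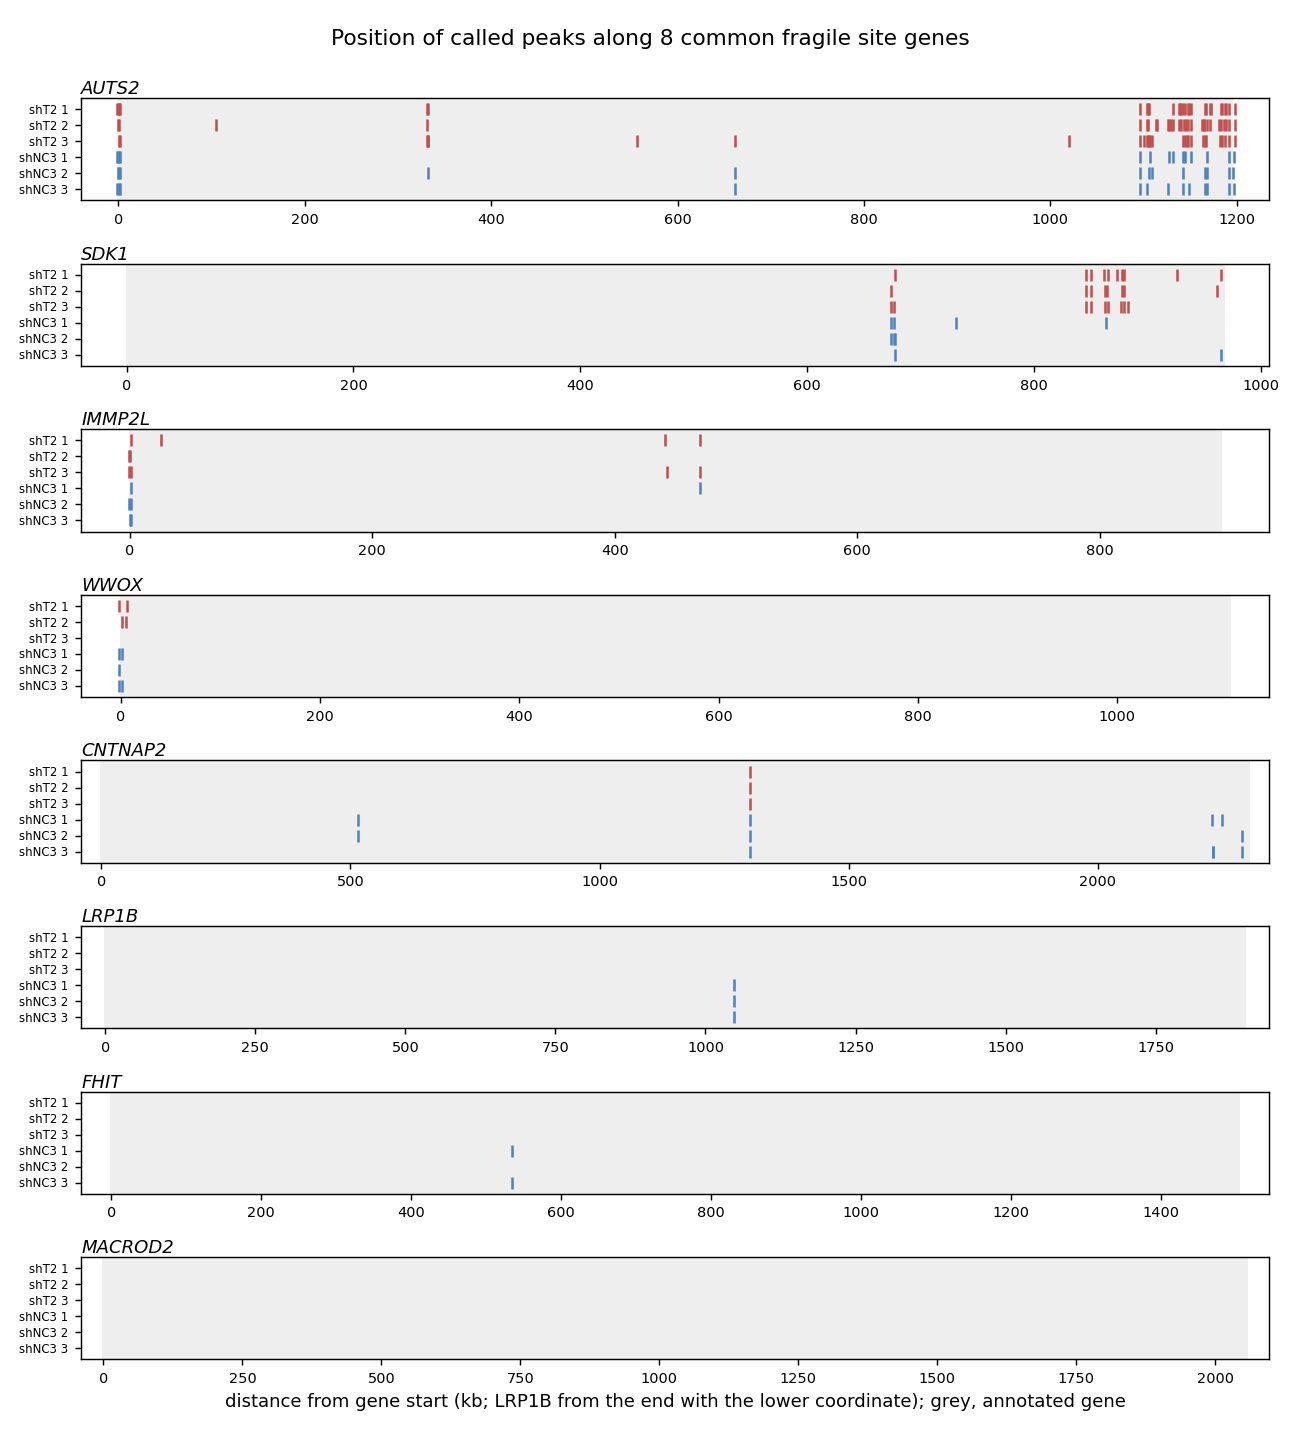
Position of every called peak along the 8 genes, by sample. The x axis is the distance from the gene start in kb (for LRP1B from the end with the lower coordinate), grey marks the annotated gene, and each tick is a peak, shT2 in red above shNC3 in blue. Peaks crowd the 3′ end of AUTS2 in all 6 samples, and MACROD2 is empty.

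Covered length, the number of bases under merged peaks, was scaled to the same total in all samples and fitted as log2(scaled bp + 500) with limma over all 15527 genes that had a peak in at least 3 of the 6 samples. A gene counts as called at a Benjamini-Hochberg adjusted p below 0.05. Of the 8 fragile site genes 6 entered the fit. AUTS2 and SDK1 were called higher in shT2, CNTNAP2 and LRP1B lower, and the other 2 were not called. LRP1B entered only through its shNC3 samples and so could only differ, which is why no share of calls is drawn from these 6. Over all genes 49.4% were called, 22.6% higher and 26.8% lower in shT2. The median log2 difference was -0.21 over the 6 genes and 0.020 without LRP1B, so its sign can turn on a single gene, and it was -0.09 over all 15527. Of the called genes, 45.8% were higher in shT2 with this scaling and 58.9% without it.

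AUTS2 carried the most R-loop coverage of the set. Covered length was 24442, 31948 and 24751 bp in shT2 replicates 1 to 3 and 13560, 12552 and 14111 bp in shNC3 replicates 1 to 3. Every shT2 sample lay above every shNC3 sample, as in 64.6% of all genes tested. Scaled covered length averaged 25.6 ± 3.0 kb in shT2, against 14.2 ± 0.54 kb in shNC3 (mean ± SD, n = 3 each). The log2 difference was 0.82 with an SE of 0.08 (limma, adjusted p = 0.000402). In the lists thinned to equal depth, where kept peaks have their full-depth widths, it was 0.69 (limma adjusted p = 0.000221). These are bulk samples, in which more cells with an R-loop and more hybrid per cell cannot be told apart. AUTS2 held 29, 30 and 28 peaks in shT2 and 14, 13 and 13 in shNC3, and 23 ± 1.0 and 13.3 ± 0.58 at equal depth (SD, n = 3 each). Peaks of at least 5-fold enrichment numbered 11, 8 and 8 in shT2 and 6, 6 and 5 in shNC3. The exact two-sided permutation test of all peak numbers gave p = 0.1, the smallest that 3 samples against 3 allow.

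**Figure D2:**
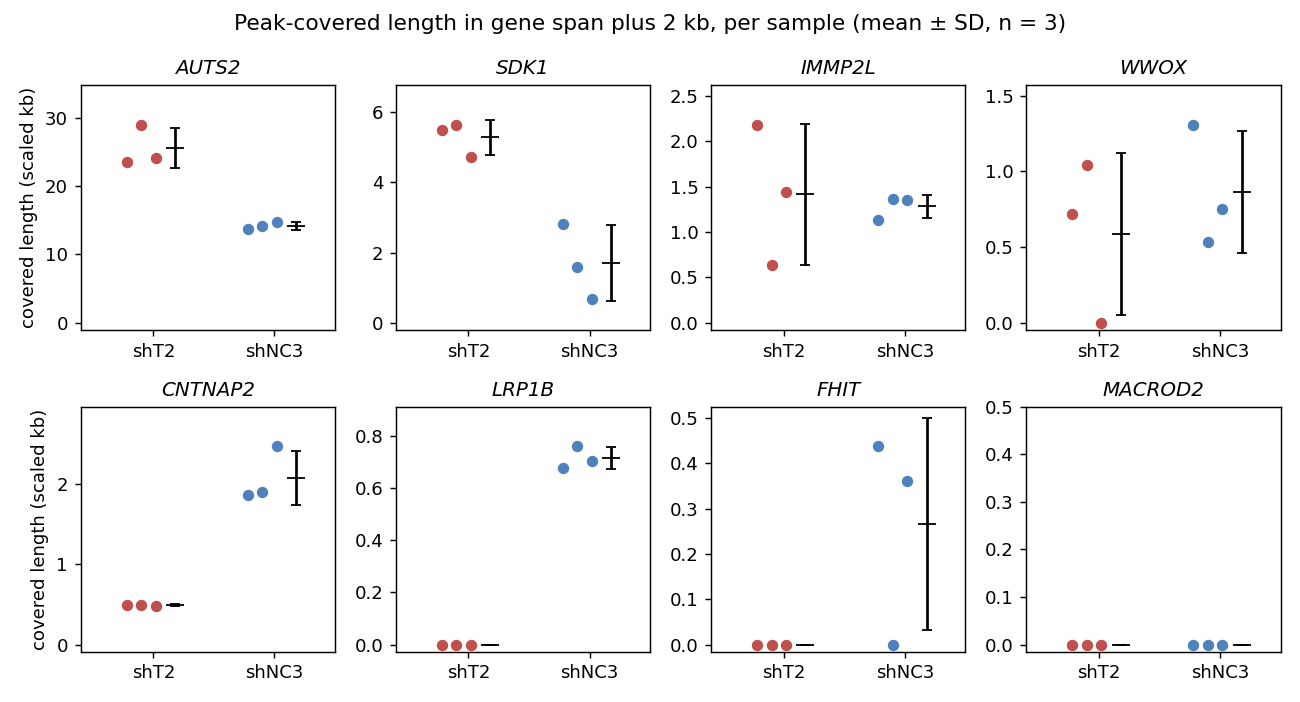
Covered length of each of the 8 genes, flanks of 2 kb included, in scaled kb. Points are the 3 samples of shT2 (left, red) and of shNC3 (right, blue), bars the mean ± SD, and each panel has its own y axis. The groups are apart in AUTS2, SDK1, CNTNAP2 and LRP1B, as in 64.6% of all genes tested, and overlap in IMMP2L, WWOX and FHIT.

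Most of the AUTS2 coverage lay in the final 10% of the gene, which held 87.5, 88.4 and 84.3% of the bases under peaks within the gene in shT2 and 84.7, 78.4 and 80.4% in shNC3. The groups overlap, and both hairpins placed most of the coverage there. Merged over samples, AUTS2 had 41 peak regions, 6 of them with a peak in all 6 samples. A peak in shT2 samples only made up 23 regions and in shNC3 samples only 1, but 17 of the 41 were seen in a single sample. No such share was counted over all peak regions, and the shT2 lists are the deeper and longer ones. Region counts by hairpin, here and for the other genes, are therefore descriptions only. Of the 23, a pair was present in 3 of 3 shT2 samples. These lay at chr7:70745527-70746231 (332, 413 and 382 bp in shT2) and chr7:70780446-70782572 (626, 1944 and 1490 bp in shT2), and no shNC3 sample had a peak in either.

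The strongest AUTS2 peak was the same interval in all 6 samples, 3346 bp at chr7:70692416-70695761. Its fold enrichment, the peak caller's own value, was 21.8, 24.5 and 23.5 in shT2 and 19.7, 19.4 and 21.0 in shNC3. Fold values are relative to each list's own background, 2.99 to 3.02 fragments per base in shT2 and 1.65 to 1.79 in shNC3, and are given as descriptions within a list. The interval lies 1094 kb into the gene and within 2 kb of an end of the lncRNA gene LOC107986709. A second interval, 1831 bp long and starting 1191 kb into the gene, was identical in 5 samples and 2095 bp wide in shT2 replicate 2. Other regions near the 3′ end were wider in shT2. The region at chr7:70747401-70751325 held 3617, 3925 and 3925 bp in shT2 and 514, 0 and 363 bp in shNC3. The region at chr7:70739953-70743149 held 2916, 2732 and 2103 bp in shT2 and 742, 577 and 997 bp in shNC3. Both lie within 2 kb of an end of the lncRNA gene LOC105375347, and were picked out after their values were seen. No share over all regions stands beside them, and the part of the greater shT2 depth in their widths was not tested. Of the peak bases in the AUTS2 body, 48.9, 48.0 and 39.0% in shT2 and 38.4, 42.0 and 44.9% in shNC3 belonged to peaks within 2 kb of an end of another annotated gene, so these groups overlap.

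**Figure D3:**
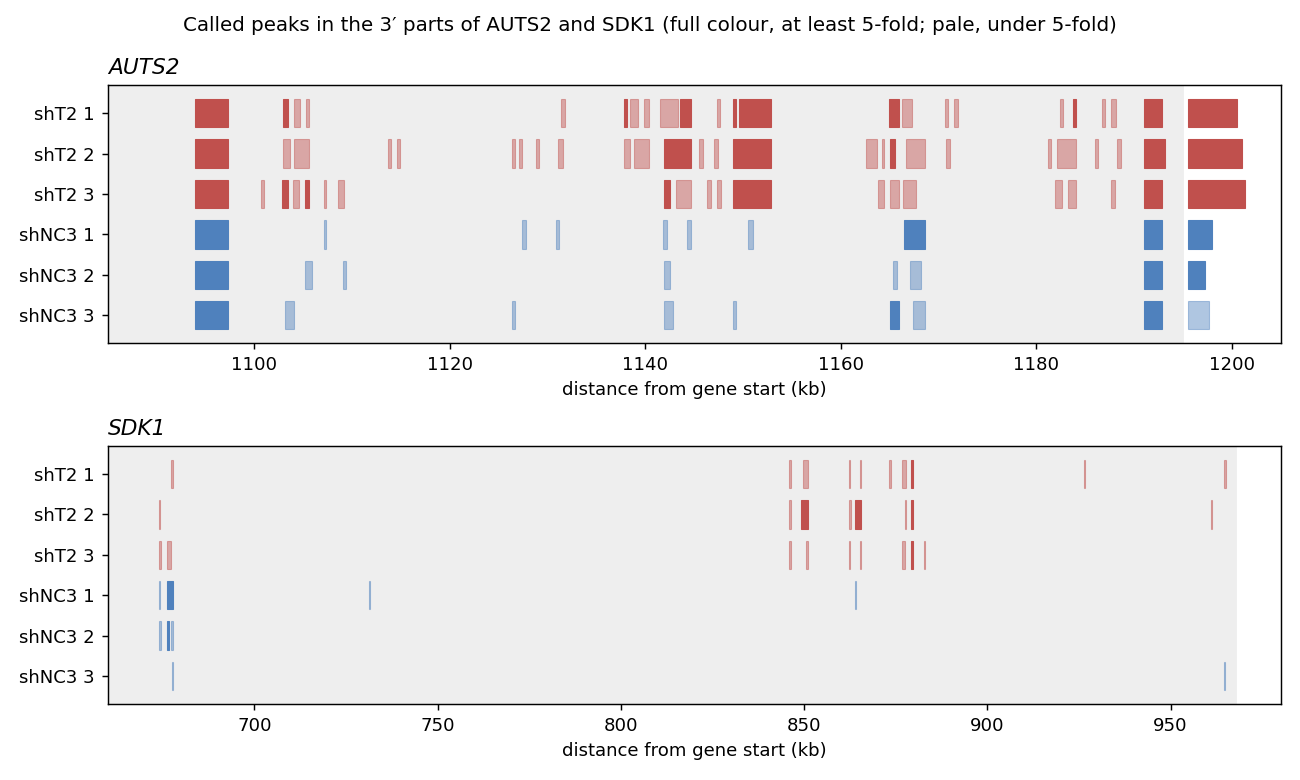
Called peaks in the 3′ parts of AUTS2 (top) and SDK1 (bottom), drawn to width by sample, shT2 above shNC3. The x axis is the distance from the gene start in kb, full colour marks peaks of at least 5-fold enrichment and pale colour weaker ones, and grey marks the gene. The wide AUTS2 peak at 1094 kb and the peak at 1191 kb recur in all 6 samples, and the SDK1 peaks between 846 and 879 kb are nearly all in shT2.

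The AUTS2 body was higher in shT2, and the windows of 2 kb around its ends did not pass the test. The body held 21566, 27988 and 22195 bp in shT2 and 9836, 9558 and 10686 bp in shNC3. Scaled covered length averaged 22.6 ± 2.4 kb in shT2, against 10.6 ± 0.64 kb in shNC3 (mean ± SD, n = 3 each). The log2 difference was 1.05 with an SE of 0.09 (limma, adjusted p = 0.000635). Of 10279 gene bodies, 46.0% were called, 24.7% higher and 21.4% lower, and in 66.2% the groups lay apart as they did here. The window at its start held 1372, 2317 and 1052 bp in shT2 and 2220, 1490 and 1921 bp in shNC3, with overlapping groups. The window at its end held 1504, 1643 and 1504 bp in shT2 and 1504 bp in each shNC3 sample. A peak region ran across the outer edge of that window in all 6 samples, so the window was filled to its edge and could not show how far the peak reached. Both windows together differed by -0.25 on the log2 scale, with an SE of 0.12 (limma, adjusted p = 0.142). Over 14015 genes, 39.7% were called in such windows, 14.8% higher and 24.9% lower. The difference of ends minus body between the hairpins was -1.30 (SE 0.13, limma adjusted p = 0.00298), where 23.3% of 13315 genes were called, 8.83% higher and 14.4% lower, and the groups lay apart in 47.3%. Restricted to the stronger peaks, those of 5-fold enrichment and above, it was -0.90 (limma adjusted p = 0.167). These values hold for the bases inside the windows.

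The AUTS2 start peak lay between -0.157 and 2.213 kb from the annotated start in all 6 samples. Its fold enrichment was 4.42, 6.57 and 4.80 in shT2 and 8.64, 9.04 and 9.53 in shNC3. The annotated gene CT66 has an end within 2 kb of this peak. The region cut off by the window past the AUTS2 end lies at chr7:70794003-70799841. Whole, it measured 5026, 5569 and 5839 bp in shT2 and 2440, 1696 and 2124 bp in shNC3. Every shT2 sample was above every shNC3 sample there, as in the body. The region was looked at after the window values had been seen and has no test, and no share over all regions stands beside it. Its widths were called in lists of unlike depth, deeper in shT2, and the part of depth in them was not tested.

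**Figure D4:**
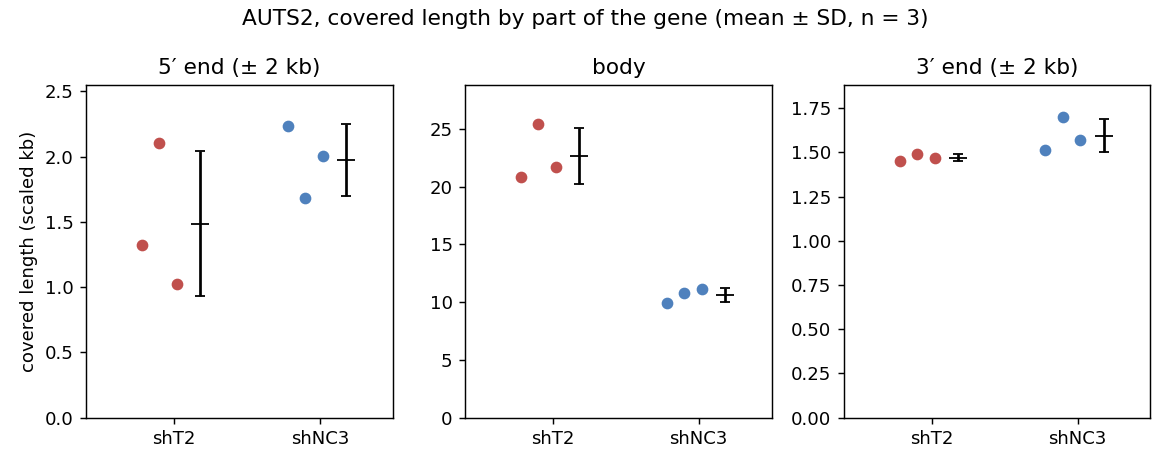
Covered length of AUTS2 in scaled kb at its 5′ end, in its body and at its 3′ end. Points are the 3 samples of shT2 (left, red) and of shNC3 (right, blue), bars the mean ± SD, and each panel has its own y axis starting at 0. The shT2 samples lie above the shNC3 samples in the body, overlap them at the 5′ end and, after scaling, lie just under them at the 3′ end, where the window is filled to its edge in all 6 samples.

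SDK1, the other gene that was higher in shT2, carried its peaks outside both end windows. Covered length was 5699, 6219 and 4825 bp in shT2 and 2804, 1402 and 643 bp in shNC3. The groups did not overlap, as in 64.6% of all genes tested. Scaled covered length averaged 5.29 ± 0.50 kb in shT2, against 1.69 ± 1.1 kb in shNC3 (mean ± SD, n = 3 each). The log2 difference was 1.52 with an SE of 0.35 (limma, adjusted p = 0.0114). At equal depth it was 1.31 (limma adjusted p = 0.0254). Restricted to the peaks of 5-fold enrichment and above it was 0.71 (limma adjusted p = 0.513). SDK1 had 10, 8 and 9 peaks in shT2 and 4, 3 and 2 in shNC3, but only 1, 3 and 1 against 1, 1 and 0 of them reached 5-fold enrichment.

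No SDK1 peak fell in the window of either end in any sample, so the body value is the value of the whole gene. Of its 14 peak regions, 5 had a peak in 3 of 3 shT2 samples and in no shNC3 sample, and none was present in all 6 samples. As for AUTS2, no share over all regions stands beside this count, and depth moves with the hairpin. These 5 began 846, 849, 862, 877 and 879 kb into the gene. The widest, at chr7:4150420-4152336, held 1383, 1780 and 664 bp in shT2. The last, at chr7:4180344-4180975, held 472, 616 and 573 bp in shT2 and was the strongest, with fold enrichments of 6.21, 5.74 and 7.27. An internal SDK1 start in the RefSeq promoter table lies 828 kb into the gene, and no peak overlapped its window of 300 bases. A region at chr7:3977367-3978989, 676 kb into the gene, held 457, 0 and 951 bp in shT2 and 1623, 843 and 328 bp in shNC3, and the groups overlap.

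CNTNAP2 and LRP1B had less R-loop coverage in shT2, both from a few narrow peaks outside the end windows. CNTNAP2 was covered over 514, 542 and 487 bp in shT2 and 1850, 1679 and 2365 bp in shNC3. Its groups did not overlap either, as in 64.6% of all genes tested. Scaled covered length averaged 0.488 ± 0.011 kb in shT2, against 2.07 ± 0.34 kb in shNC3 (mean ± SD, n = 3 each). The log2 difference was -1.37 with an SE of 0.18 (limma, adjusted p = 0.00121). Each shT2 sample had 1 peak, and the shNC3 samples had 4, 3 and 4. The shT2 lists are the deeper ones, and at equal depth they kept 0.333 ± 0.58 peaks in this gene against 3.67 ± 0.58 in shNC3 (SD, n = 3 each). The log2 difference was then -2.01. Of the shT2 samples only replicate 3 kept a peak, so CNTNAP2 passed the filter through its shNC3 samples. Its direction at equal depth was thus nearly fixed, and no p-value is given for it.

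The peak common to all 6 samples lay at chr7:147418157-147418851, 1301 kb into CNTNAP2, with fold enrichments of 3.31, 3.50 and 4.24 in shT2 and 3.94, 4.11 and 5.83 in shNC3. The other 6 CNTNAP2 regions were seen in shNC3 samples alone, 4 of them in a single sample. Those last were 303 to 710 bp wide and lay 2229 to 2250 kb into the gene, in its 3′ part. The final 10% of CNTNAP2 held none of the covered bases in shT2 and 49.0, 39.1 and 70.6% in shNC3. No CNTNAP2 peak fell in an end window.

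LRP1B had no peak in shT2. In shNC3 it had 1 peak of 673 bp in each of the 3 samples, the same interval, chr2:141278028-141278700, near the middle of the gene. Its fold enrichment was 5.02, 6.03 and 4.74. Scaled covered length averaged 0 kb in shT2, against 0.713 ± 0.042 kb in shNC3 (mean ± SD, n = 3 each), and no fold is given against a group without peaks. LRP1B could be tested only because all 3 shNC3 samples had the peak. The direction of its call was thus fixed, and no p-value is given. Without any 1 of the shNC3 replicates LRP1B has a peak in only 2 samples and leaves the test.

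**Figure D5:**
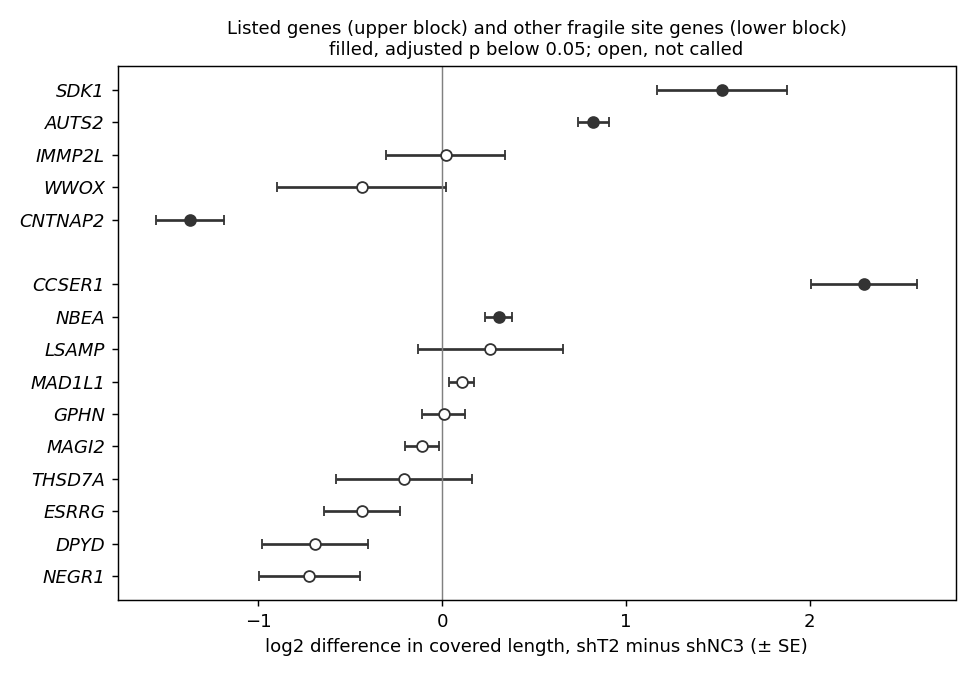
Difference in covered length, shT2 minus shNC3, as log2 values with SE bars. The listed genes are above and the other fragile site genes below, filled points have an adjusted p below 0.05, and LRP1B and RORA, which have no peak in shT2, are left out. SDK1 (1.52) and AUTS2 (0.82) lie above 0, CNTNAP2 (-1.37) below it, and IMMP2L and WWOX are open.

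IMMP2L and WWOX, in contrast, had peaks at their starts. The IMMP2L body held 64.8, 0 and 45.8% of its covered bases in shT2 and 30.1, 0 and 0% in shNC3. IMMP2L was covered over 2261, 695 and 1471 bp in shT2 and 1127, 1207 and 1296 bp in shNC3, and the shT2 values span the shNC3 values. The log2 difference was 0.020 with an SE of 0.32 (limma, adjusted p = 0.964). A peak at its start, chr7:111561333-111562990, was present in all 6 samples and held 797, 695 and 797 bp in shT2 and 788, 1207 and 1296 bp in shNC3. The scaled end windows held 0.726 ± 0.083 kb in shT2, against 1.17 ± 0.33 kb in shNC3 (mean ± SD, n = 3 each, log2 difference -0.43, SE 0.22, limma adjusted p = 0.153). The groups lay apart there, as in 59.2% of the genes tested over their end windows. The IMMP2L body averaged 0.690 ± 0.71 kb in shT2, against 0.114 ± 0.20 kb in shNC3 (mean ± SD, n = 3 each, limma adjusted p = 0.272). Ends minus body gave -1.23 (SE 0.59, limma adjusted p = 0.198). LRRN3, a leucine-rich repeat membrane protein gene nested in IMMP2L, lies within 2 kb of a body peak at chr7:111091991-111092579 that held 589, 0 and 394 bp in shT2 and 339, 0 and 0 bp in shNC3. It is named after its values were seen.

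WWOX was covered over 744, 1152 and 0 bp in shT2 and 1301, 471 and 719 bp in shNC3, with overlapping groups. Its log2 difference was -0.44 with an SE of 0.46 (limma, adjusted p = 0.451). A peak just before its start, chr16:78097707-78098177, was present in 1 of 3 shT2 samples and 3 of 3 shNC3 samples. A peak just after it, chr16:78100098-78100927, was present in 1 shT2 sample and 2 shNC3 samples, and both flank the WWOX promoter window. The other WWOX regions were 458 bp in shT2 replicate 2 and 312 bp in shT2 replicate 1, starting 4.37 and 6.27 kb into the gene. Ends minus body differed by -1.24 (SE 0.24, limma adjusted p = 0.0207), where the body coverage is those 2 peaks. At equal depth it was -0.93 (limma adjusted p = 0.161), and without shT2 replicate 1 or 2 the adjusted p was 0.0707 and 0.0601. Without shT2 replicate 3 or shNC3 replicate 3 it was 0.0747 and 0.0605.

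FHIT and MACROD2 were nearly free of called peaks. FHIT had 1 region, chr3:60716626-60717099, with no peak in any shT2 sample, 435 and 346 bp in shNC3 replicates 1 and 3 and none in shNC3 replicate 2. It was covered in too few samples to be tested. MACROD2 spans 2058 kb and had no peak in any of the 6 samples, at its GC-rich start or elsewhere, and the nested FLRT3, an adhesion protein gene, had none there either. Genes without a peak in any sample made up 12.5% of the 8 genes, 39.3% of the 907 other genes over 300 kb and 53.7% of all 38353 genes. An empty gene is thus common and no special feature of this list. A gene without a called peak may still hold signal under the calling threshold, which these lists do not show.

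AUTS2 supplied most of the covered length of the set, 72.6, 78.8 and 78.5% in shT2 and 62.3, 69.8 and 70.0% in shNC3. Without AUTS2 the other 7 genes held 9218, 8608 and 6783 bp in shT2 and 8190, 5432 and 6042 bp in shNC3, and the groups overlap. Peaks in the 8 genes had a lower median fold enrichment than their whole list in all 6 samples. It was 4.07, 4.05 and 4.28 in shT2, where the whole lists had 5.01, 4.80 and 5.07. In shNC3 it was 4.53, 4.77 and 4.37, where the whole lists had 5.14, 5.38 and 5.16. Of the 207 peaks of these genes, 24 (11.6%) had exactly the same start and end in another sample, and 9.19% of all 283981 peaks did.

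Other genes at common fragile sites ranged from a few narrow peaks to dense coverage. Of the 11 of 20 such genes that could be tested, 2 were higher in shT2, 1 was lower and 8 were not called, which is 27.3% called, 18.2% higher and 9.09% lower, with a median log2 difference of -0.11. The groups lay apart in 36.4% of the 11. The only lower one, RORA, had no peak in shT2 and so could only be lower. Of the 10 genes with peaks under both hairpins 2 were higher, 0 lower and 8 not called, with a median of -0.051. CCSER1, which encodes a coiled-coil protein, was covered over 2766, 2921 and 2283 bp in shT2 and 415, 0 and 0 bp in shNC3. It averaged 2.52 ± 0.25 kb in shT2, against 0.139 ± 0.24 kb in shNC3 (mean ± SD, n = 3 each, log2 difference 2.30, SE 0.29, limma adjusted p = 0.000987). NBEA, which encodes a membrane-trafficking protein of synapses, averaged 6.25 ± 0.26 kb in shT2, against 4.95 ± 0.28 kb in shNC3 (mean ± SD, n = 3 each, log2 difference 0.31, limma adjusted p = 0.0122). RORA, which encodes a nuclear receptor, lacked peaks in shT2 and averaged 0.815 ± 0.42 kb in shNC3 (SD, n = 3). MAD1L1, a spindle checkpoint gene named after its values were seen, had the most coverage of the 20, 91.7 ± 9.3 kb in shT2, against 84.8 ± 1.7 kb in shNC3 (mean ± SD, n = 3 each, log2 difference 0.11, limma adjusted p = 0.224).

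Long genes were more thinly covered than genes in general. Per Mb of gene, the 8 genes had 2.79 ± 0.26 scaled kb in shT2 and 1.76 ± 0.067 in shNC3 (SD, n = 3 each), a ratio of 1.58. The 907 other genes over 300 kb had 4.66 ± 0.10 in shT2 and 3.27 ± 0.086 in shNC3, a ratio of 1.43. The 20 other fragile site genes, MAD1L1 among them, had 4.81 ± 0.33 in shT2 and 4.54 ± 0.085 in shNC3, a ratio of 1.06. Most of their covered length was in MAD1L1, with 91.7 kb in shT2 and 84.8 kb in shNC3. GPHN came next with 8.31 and 8.21 kb. The value of the 20 is thus mainly that of MAD1L1, as the value of the 8 is mainly that of AUTS2. Over all genes the values were 43.7 ± 0.061 in shT2 and 44.8 ± 0.16 in shNC3, a ratio of 0.975. In the lists thinned to equal depth, with full-depth widths, the ratios were 1.41 for the 8 genes, 1.36 for the other long genes, 1.00 for the 20 and 0.978 for all genes. Of 438 testable genes over 300 kb outside both lists, 60.3% were called, 29.7% higher and 30.6% lower in shT2, so both directions are common among long genes.

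Among 449 tested genes over 300 kb, the one whose covered length came closest to each gene over the 6 samples was found by the root mean square of the log2 differences. KIF26B, a kinesin-family gene, came closest to AUTS2 (0.12), and ANO4, of the anoctamin family, to LRP1B (0.064). C1QTNF7-AS1 came closest to CNTNAP2 (0.26), MYO18B, a myosin-family gene, to WWOX (0.27), LOC105370003 to IMMP2L (0.37) and PHACTR1, which encodes a regulator of phosphatase and actin, to SDK1 (0.41). Each likeness covers 6 samples only and reads both level and hairpin difference.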

How the data were processed

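DRIP-seq was run on 6 SH-SY5Y samples, 3 with shT2 and 3 with shNC3, grouped by title. Per the submitters' processing notes the tools were Bowtie2 2.4.4, SAMtools and MACS2 2.2.6 with build hg38. Which control entered the calling is not stated there, and the labels' protocols mention an RNase H-treated control. Each deposited list was called on 1 sample and gives the peak's position, an integer score, the fold enrichment at the summit, and the −log10 of both the p-value and the q-value, which runs up to 0.01 in each deposited list. The deposited fold and −log10 p were used to recover depth and to thin lists to equal depth, by scaling pileup and background to the lowest background. Since DNA was cut before the pulldown, a peak's width can reflect the cut fragment and need not be that of an R-loop.

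Covered bp of merged peaks (overlap of at least 1 bp) were scaled to the mean total covered length, and limma 3.58.1 under R 4.3.3 was run on log2(bp + 500) (lmFit; eBayes robust, with a trend except for ends minus body; Benjamini-Hochberg over all genes, threshold 0.05). Genes covered in at least 3 of 6 samples were tested, and the script was tested on simulated data. The added 500 bp shrinks the log2 differences of thinly covered genes. Gene positions and promoters are from RefSeq, GRCh38.p14. The gene table has no entry used here for DLG2-AS1. The genes and lists were chosen with earlier results of these data known. Named were all members, the 4 called fragile site genes with the smallest p (3 were called), the closest long gene to each member, and genes whose end lies within 2 kb of a peak found in 3 of 3 samples of a hairpin. The alternatives were the scaling, the peaks used, the pseudocount, the filter, the windows, the replicate block and leaving out each sample. Same-numbered samples of the 2 hairpins did not deviate together (r = -0.02, -0.05 and -0.01 over genes). That does not show whether they were prepared together. The main fit does not pair them, and the replicate block is the alternative that does.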

Additional observations from a re-analysis of the deposited data

How the results depend on the processing

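Over all alternatives run, the calls of AUTS2 (log2 difference 0.62 to 0.98) and, wherever a value was had, CNTNAP2 (-2.01 to -0.71) kept their direction and side of the threshold. At equal depth CNTNAP2 passed the filter through its shNC3 samples, so its direction there was nearly fixed. LRP1B has no peak in shT2, so its direction was fixed wherever it could be tested. CNTNAP2 and LRP1B have no value with peaks of at least 5-fold enrichment, where they are covered in fewer than 3 samples. With those peaks SDK1 was 0.71 (adjusted p = 0.513) and IMMP2L -0.64, 1 listed gene was higher and 0 lower, and 2257 genes were higher and 2513 lower over all genes, against 3509 and 4161 with all peaks. Ends minus body was then -0.90 (adjusted p = 0.167) for AUTS2 and -0.65 (0.476) for WWOX. Differences in peak number were 3.33 for AUTS2, 1.00 for SDK1, -0.67 for CNTNAP2 and LRP1B, -0.33 for IMMP2L and 0 for FHIT, and the share of AUTS2 body bases near other genes' ends was 73.7% in shT2 and 54.0% in shNC3. Without scaling 2742 genes were lower. At equal depth IMMP2L was -0.020, WWOX ends minus body -0.93 (adjusted p = 0.161, also with lists cut to equal peak number), the AUTS2 share 51.5% in shT2, and the peak number differences -3.33 for CNTNAP2, 9.67 for AUTS2 and 3.67 for SDK1. With a pseudocount of 100 bp IMMP2L was -0.011. Without flanks WWOX was 0.040. With windows of 5 kb WWOX ends minus body was -0.80 (adjusted p = 0.285). By peak midpoints AUTS2 differed by 14.7 peaks, and its share in shT2 was 25.7%. With the replicate block, WWOX ends minus body was -1.24 (adjusted p = 0.0592), and 593 genes were higher and 1047 lower in that comparison, against 1176 and 1924 without the block. The block changed no call over the whole span of a listed gene, and none of AUTS2 in its body, ends or ends minus body. Leaving out each sample gave -0.27 to 0.36 for IMMP2L (below 0 without shT2 replicate 1, shT2 replicate 3 or shNC3 replicate 1), -0.77 to 0.049 for WWOX (above 0 without shT2 replicate 3), -0.38 to -0.15 for the AUTS2 ends (adjusted p = 0.0313 without shT2 replicate 2), -1.42 to -1.02 for WWOX ends minus body, and 1 to 2 listed genes lower. SDK1 stayed called (1.13 to 1.89). The covered length per Mb of all genes, shT2 over shNC3, was 1.09 without scaling. Apart from AUTS2 and SDK1, the listed genes had 0 to 4 peaks a sample, so a single peak near the calling threshold can move their values.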
